A study of Rattus norvegicus with 16 samples.

Results

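The miR-22 hairpin of the rat gives rise to 2 mature miRNAs on the array, rno-miR-22 from its 3′ arm and rno-miR-22* from its 5′ arm. Both were taken by name, and they were 2 of the 677 rat miRNAs measured. Hearts came from 16 rat pups on day 2 after birth, with 4 females and 4 males of HHR and 4 females and 4 males of NHR. HHR is the Hypertrophic Heart Rat, a strain whose cardiac enlargement is polygenic, and NHR is the Normal Heart Rat, its counterpart with hearts of normal size. The labels name no transgene and no treatment, and each animal gave 1 one-colour array with no pooling. One label names the whole heart as the source and the design text names ventricles separated from the atria, so the exact tissue is not settled.

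miRNAs are short RNAs that guide Argonaute proteins to matching sites in messenger RNAs and lower the output of those messages. A hairpin precursor is cut by Dicer into a duplex, and usually one strand is kept while the other, written with a star in the older names, is discarded. miR-22 is enriched in heart and skeletal muscle. In mice its loss blunts the growth of the heart under stress, and its reported targets include the deacetylase genes Sirt1 and Hdac4.

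The hairpin and both mature strands are shown because separate probes read its 2 arms. All are RefSeq sequences of the GRCr8 build, plus strand, with the hairpin at chr10:60805331-60805425. Capitals mark the mature strands in the hairpin, the 5′ arm first, and the seed (bases 2 to 8) in the mature sequences.
Mir22 hairpin: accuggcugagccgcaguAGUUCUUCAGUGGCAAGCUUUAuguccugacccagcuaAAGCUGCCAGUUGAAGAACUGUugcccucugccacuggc
rno-miR-22-3p, named miR-22 on the array: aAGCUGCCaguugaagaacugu
rno-miR-22-5p, named miR-22* on the array: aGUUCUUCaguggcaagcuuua
The 3′ strand lies at chr10:60805387-60805408 and the 5′ strand at chr10:60805349-60805370. Both strands are 22 bases long and lie 16 bases apart. In the fold that RNAfold 2.7.2 predicts for the hairpin (-43.0 kcal/mol), 19 base pairs join the 2 strands, of which 18 are Watson-Crick pairs and 8 are G-C pairs. Neither strand shares bases 2 to 7 with another of the 724 mature rat sequences of RefSeq, so the miR-22 seed has a single member there. The message site that the miR-22 seed would match reads GGCAGCU, and that of miR-22* reads GAAGAAC. No other annotated gene overlaps the hairpin, and the nearest protein-coding genes are Tlcd2, 3966 bases away on one side, and Wdr81, 11660 bases away on the other. The array files name the older rn4 build, so these positions are those of RefSeq.

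The scanner software called 200 to 239 miRNAs detected on each array, 186 on all 16 and 417 on none, and the 233 detected on at least 4 arrays were tested. No spot was saturated. The brightest signals belonged to the muscle miRNAs miR-133b and miR-1, and the cardiomyocyte miRNAs miR-499, miR-208* and miR-208b-3p were detected on all 16 arrays. miR-208, the other arm of the miR-208* hairpin from the α-myosin gene Myh6, was detected on none. Of the markers of other tissues, the liver miRNA miR-122, 4 epithelial miRNAs and 2 neural ones were detected on no array. The skeletal muscle miRNA miR-206 was detected on 4 arrays. Before scaling, HHR arrays were brighter than NHR arrays: the 75th percentile of signal averaged 469.6 ± 37.3 in HHR and 378.4 ± 87.3 in NHR (SD over 8 animals a strain; exact permutation, two-sided, p = 0.0191). Of the NHR arrays 3 (female 3, male 2 and male 4) lay between 442.7 and 502.9, within the HHR range, and 5 between 294.7 and 326.8. The levels below are therefore given after each array was scaled to the same 75th percentile over its bright probes (scaled level, in units of signal). In bulk tissue, fewer cells of a type and less of a miRNA per cell cannot be told apart.

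miR-22 was among the brightest miRNAs of the newborn heart, and its partner strand was not detected. On each array 20 spots read each strand. For miR-22 these were 10 spots of each of 2 probes, and all 20 were well above background on all 16 arrays. The spots of a probe agreed closely, with a coefficient of variation of 1.77% to 7.69% per probe and array. The brighter probe gave 5.26 to 5.77 times the signal of the dimmer one, and this ratio averaged 5.52 ± 0.157 in HHR and 5.55 ± 0.182 in NHR (SD over 8 animals a strain; exact permutation, two-sided, p = 0.725). The log2 strain difference of miR-22 (HHR minus NHR) with each probe alone was -0.16 (limma adjusted p = 8.25e-04) and -0.17 (adjusted p = 0.00155).

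For miR-22*, none of the 20 spots of its 1 probe was well above background on any array, and the scanner software called it detected on none. Its scaled signal ran from 2.80 over a median of 3.84 to 4.64 in HHR and from 3.29 over a median of 4.09 to 5.07 in NHR. The dimmest miRNA called detected had a level of 1.03 to 2.80 per array, below the miR-22* signal of that array; the software calls detection from each probe's own spots, not at a common level. Since miR-22* was not well above background in either strain, no strain difference is given for it. For the same reason the ratio of the arms was not measured. The miR-22 signal was 197 to 331 times the undetected miR-22* reading on HHR arrays and 191 to 323 times on NHR arrays. This quotient averaged 250.0 ± 43.2 in HHR and 253.9 ± 44.9 in NHR (SD over 8 animals a strain). It sets no limit, since arms detected on no array also gave higher readings, such as miR-409-5p with a mean of 5.67. It is a ratio of signals of different probes, which can bind and label differently, and not a ratio of molecules.

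**Figure D1:**
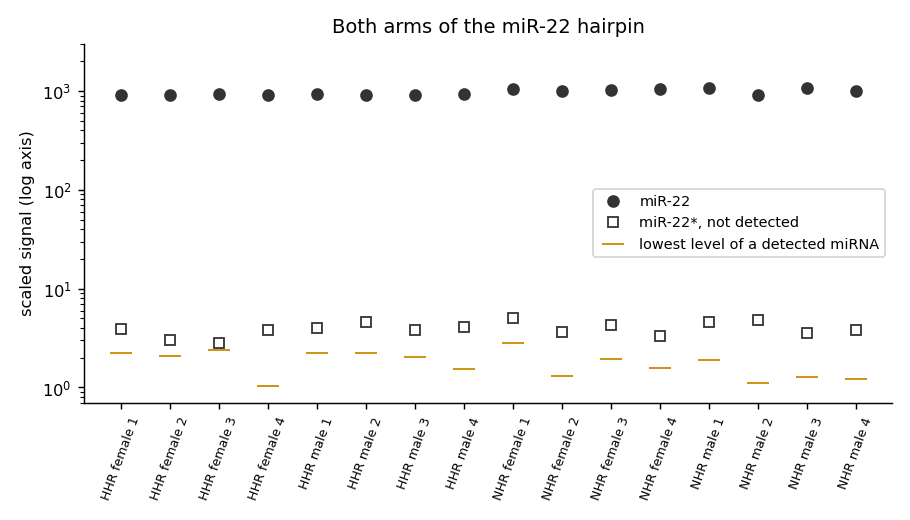
Scaled signal (log axis) of miR-22 (filled circles) and miR-22* (open squares) on each of the 16 arrays, with the level of the dimmest detected miRNA of that array (dashes). miR-22 lies between 906 and 1087 on every array and miR-22*, detected on none, between 2.80 and 5.07.

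Such a one-sided hairpin was common on this array. Of 257 hairpins with both arms on the array by name, 86 had one arm detected on all 16 arrays and the other on none, 22 had both arms on all 16, and 97 had neither arm on any. By the signal of the detected arm, miR-22 stood at position 6 of the 86, after miR-133b, miR-130a, miR-16, let-7i and miR-143. A strain difference in the arm ratio was tested in 36 hairpins whose arms were each detected on at least 4 arrays, and 4 of these (11.1%) passed at an adjusted p under 0.05 in limma. Of the 4, let-7b and miR-322 had both arms detected on all 16 arrays, with a log2 difference of brighter over dimmer arm (HHR minus NHR) of 0.36 and -0.14. The star arm of let-7d was detected on 14 arrays and that of miR-328a on 4, so no size is given for these. miR-22 was not one of the 36.

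By signal, miR-22 stood at position 15 of the 186 miRNAs detected on every array. Its rank among the detected miRNAs of an array was 15 on 12 arrays, 14 on NHR female 3, NHR male 1 and NHR male 4, and 16 on HHR female 2. Ranks are of probe signal and carry differences between probes. Directly above it were miR-24, the endothelial miRNA miR-126 and let-7b, and directly below it miR-26a, miR-125b-5p and miR-15b. miR-24 and miR-126 were brighter than miR-22 on all 16 arrays. let-7b was brighter on 12 of 16, so this neighbour was not separated from miR-22 over the arrays. miR-26a, miR-125b-5p and miR-15b were dimmer on all 16. The rank averaged 15.1 ± 0.354 in HHR and 14.6 ± 0.518 in NHR (SD over 8 animals a strain). The difference of 0.50 places did not pass (exact permutation, two-sided, p = 0.123, and 0.123 after adjustment over 3 array summaries). It passed where the probes of a miRNA were averaged as log2 values (2.62 places, exact permutation, adjusted p = 0.00746) and in the authors' deposited table (2.25 places, exact permutation, adjusted p = 0.0126).

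**Figure D2:**
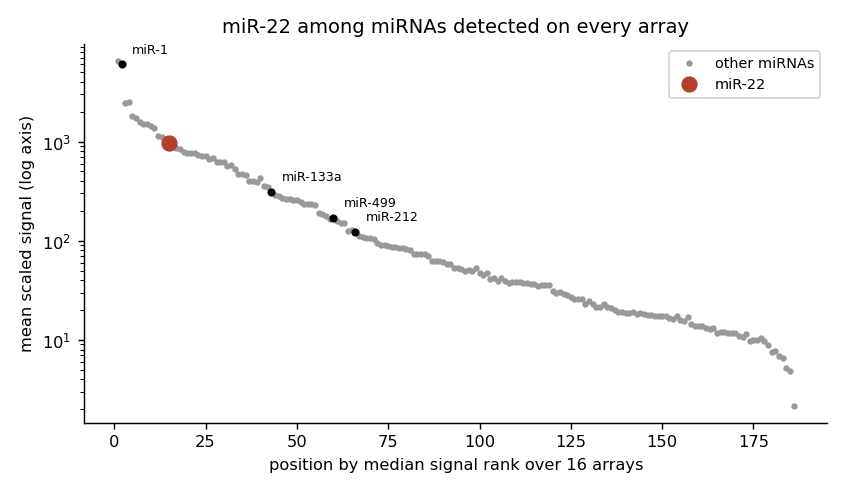
Mean scaled signal (log axis) of the 186 miRNAs detected on every array, ordered by median signal rank, with miR-22 in red and 4 other miRNAs labelled in black. miR-22 sits at position 15, below miR-1 and above miR-133a, miR-499 and miR-212.

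The main comparison was between the strains. Relative to the brighter miRNAs of the same array, miR-22 was lower in HHR hearts, 1.12-fold on average. Its scaled level was 911, 906, 927 and 908 in HHR females and 932, 914, 915 and 926 in HHR males. It was 1059.6, 999.7, 1034 and 1061 in NHR females and 1086, 911, 1087 and 1006 in NHR males. The 8 HHR values lay close together, and 7 of the 8 NHR values lay above all of them, with NHR male 2 inside the HHR range. The mean level was 918 ± 9.80 in HHR and 1030.5 ± 58.5 in NHR (SD over 8 animals a strain). The difference was -0.17 ± 0.034 on the log2 scale (SE, 95% interval -0.24 to -0.093), with a limma adjusted p of 0.00132 over 233 tested miRNAs. Without NHR male 2 it was -0.19 (adjusted p = 3.59e-05). Of the 233 tested miRNAs 54.5% were called, 45.5% as lower in HHR and 9.01% as higher, so a call as lower was common. In 11.2% every HHR value lay below every NHR value, which miR-22 did not reach, and in 14.2% the strains did not overlap in either direction.

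**Figure D3:**
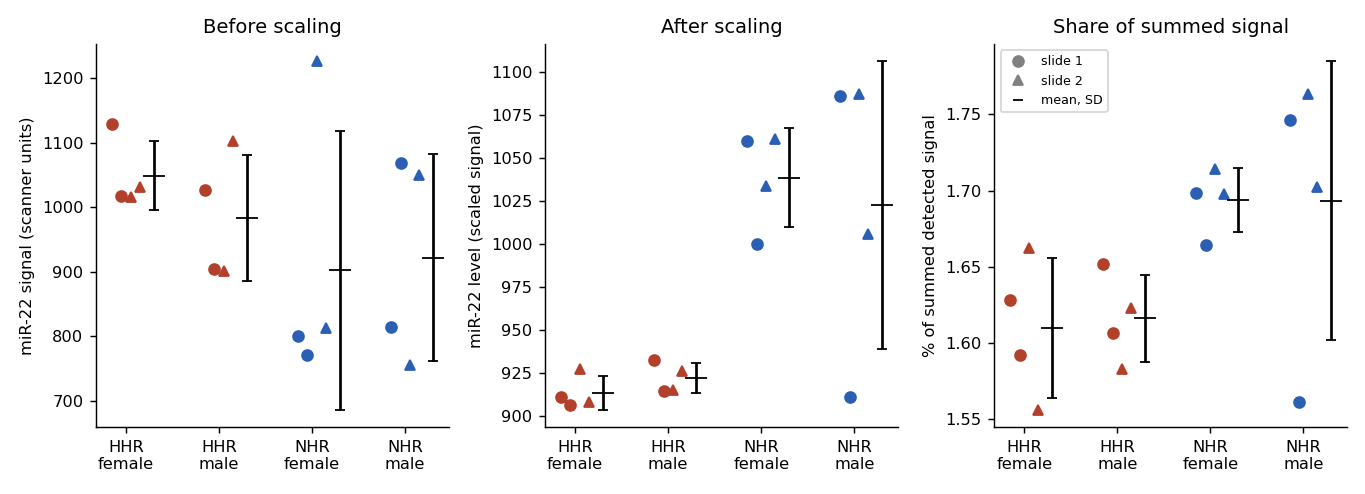
miR-22 in each animal, in 4 groups of 4 (circles slide 1, triangles slide 2, bars mean and SD, HHR red and NHR blue), as unscaled signal, scaled level and percent of the summed signal of detected miRNAs; the axes do not start at 0. HHR animals lie between 906 and 932 after scaling, and NHR animals between 911 and 1087.

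The direction of this difference rested on how the arrays were scaled. Before scaling, the miR-22 signal was 1016 ± 81.0 in HHR and 912 ± 177 in NHR (SD over 8 animals a strain), a log2 difference of 0.17 with the opposite sign (limma adjusted p = 0.198). Under the 5 other scalings it was -0.040 with quantile normalization (adjusted p = 0.146), 0.11 with a percentile over all probes (adjusted p = 0.0479), 0.17 without scaling, 0.0089 with median centring (adjusted p = 0.876) and 0.079 with spike-in scaling (adjusted p = 0.645). It thus turned positive under 4 of the 5, and was called higher in HHR under 1. The median of all 233 tested miRNAs moved in the same way, from -0.11 under the reported scaling up to 0.23 without scaling. Relative to that median, the miR-22 difference was -0.062 to -0.055. A factor per array shifts miR-22 and the median alike, so that this range is narrow by construction and is no sign of stability. The share of lower calls among all called miRNAs was 83.5% of 127 here, and 40.0% of 95, 13.5% of 155, 20.8% of 48, 32.2% of 87 and 40.0% of 25 under the other scalings in the order given.

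**Figure D4:**
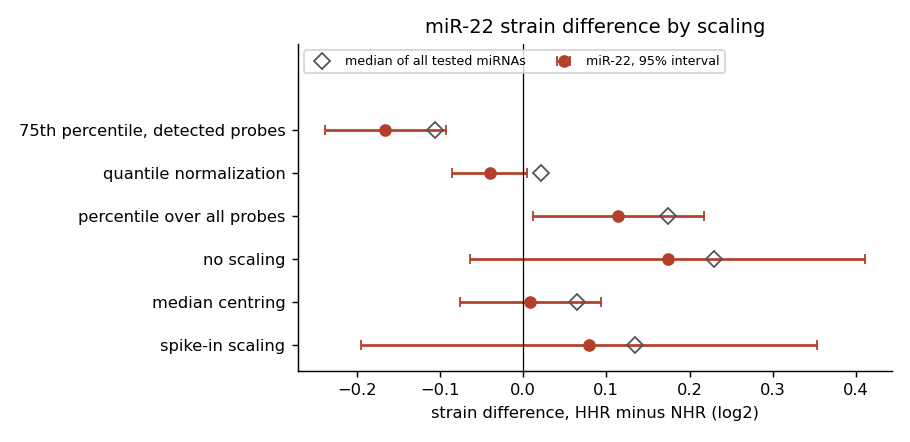
Strain difference of miR-22 (HHR minus NHR, log2, red points with 95% intervals) and median difference of all tested miRNAs (open diamonds) under 6 scalings. miR-22 ranges from -0.17 to 0.17 and moves together with the median, as a factor per array shifts both alike.

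The share and the ratio to miR-1 and miR-133a on the same array do not move with its scaling, and in both miR-22 was lower in HHR. miR-22 made up 1.61% ± 0.0357 of the summed signal of detected miRNAs in HHR and 1.69% ± 0.0616 in NHR (SD over 8 animals a strain). The shares ran from 1.56% over a median of 1.61% to 1.66% in HHR and from 1.56% over a median of 1.70% to 1.76% in NHR, so the strains overlapped. The difference of -0.0808 percentage points passed the test (exact permutation, two-sided, p = 0.00808, adjusted p = 0.0242), and did so without each array in turn. With a normexp background it was -0.0393 and did not pass (exact permutation, adjusted p = 0.114). Its log2 level minus the mean log2 level of miR-1 and miR-133a averaged -0.53 ± 0.058 in HHR and -0.44 ± 0.077 in NHR (SD over 8 animals a strain), a difference of -0.086 (exact permutation, two-sided, p = 0.0241, adjusted p = 0.0361). This call was lost without HHR female 1, HHR female 4, HHR male 3, NHR female 1, NHR female 3, NHR male 1 or NHR male 3 (-0.084 to -0.070, adjusted p up to 0.0737), and with a normexp background (-0.069, exact permutation, adjusted p = 0.114). Such measures show unequal differences within an array, and not which miRNA differed in amount. The ratio also depends on the miRNAs chosen. Under the reported scaling miR-1 and miR-133a differed between the strains by -0.10 and -0.059, neither called, against -0.17 for miR-22. Of the other muscle miRNAs on all 16 arrays, miR-208*, miR-133b, miR-208b-3p and miR-499 differed by -0.13, -0.15, -0.17 and -0.28. Ratios to these were not tested. Within slide 1 and slide 2 the share differed by -0.0480 (exact permutation p = 0.286) and -0.114 percentage points (exact permutation p = 0.0286, the smallest possible there, adjusted p = 0.0857). The level relative to miR-1 and miR-133a differed by -0.049 (exact permutation p = 0.343) and -0.12 (exact permutation p = 0.0857).

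Array brightness differed between the strains, so the miR-22 levels are also given by it. The 3 bright NHR arrays had miR-22 levels of 1034, 911 and 1006, and the 5 dimmer ones 999.7 to 1087, against 906 to 932 on the 8 HHR arrays. Among the HHR arrays the 75th percentile ran from 417.7 to 525.2, and the miR-22 level did not follow it. The HHR array at 417.7 had 915 and that at 525.2 had 911 (Pearson r of the log2 values -0.016, 8 arrays). Within NHR the level was lower on brighter arrays (r = -0.71, 8 arrays), and over all 16 arrays r was -0.79. The scaled level has this percentile as its divisor, which by itself can make r negative. The unscaled miR-22 signal rose with brightness (r = 0.96, 16 arrays). With array brightness as a covariate the difference was -0.11 (limma adjusted p = 0.0294). Over the 8 HHR and 3 NHR arrays whose 75th percentile exceeded 400, it was -0.098 (adjusted p = 0.0715). Each of the 2 slides held 2 arrays of every group, and the difference was -0.14 within slide 1 (adjusted p = 0.135) and -0.19 within slide 2 (adjusted p = 0.0303). On slide 1 NHR male 2 was the one NHR array at the HHR level.

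The strain difference was negative in both sexes. The level was 913 ± 9.79 in HHR females against 1038 ± 28.8 in NHR females, and 922 ± 8.75 in HHR males against 1022 ± 83.6 in NHR males (SD, n = 4 each). The log2 difference was -0.19 ± 0.048 in females (SE, limma adjusted p = 0.00930) and -0.15 ± 0.048 in males (adjusted p = 0.0447), from a fit in which the groups share one spread. Fitted on the males alone, the difference was not called (-0.15, adjusted p = 0.155). In females and males 45.1% and 20.6% of the 233 tested miRNAs were called, 38.6% and 16.7% of the 233 as lower in HHR. The strain-by-sex interaction was 0.040 ± 0.067 (95% interval -0.11 to 0.18, adjusted p = 0.954). Males minus females differed by -0.0059 ± 0.034 (95% interval -0.078 to 0.067, adjusted p = 0.983). With limma 0 of 233 miRNAs (0%) were called for sex and 0 (0%) for the interaction, with 23 and 9 at an unadjusted p under 0.05.

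**Figure D5:**
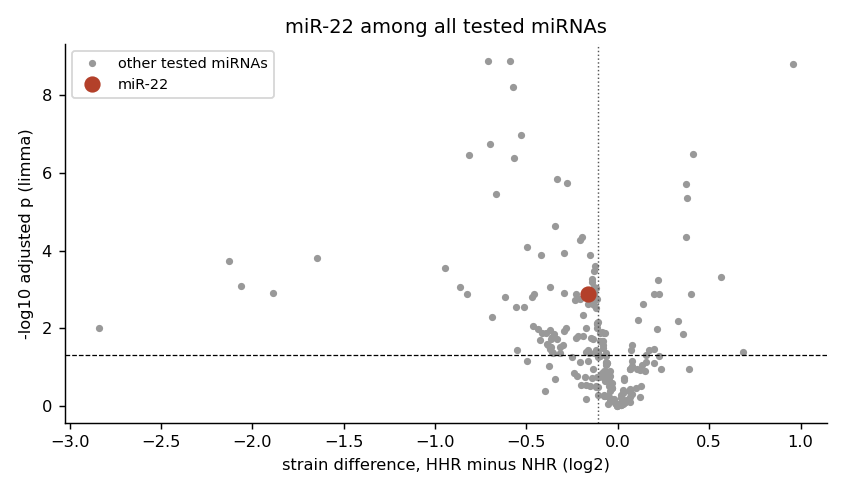
Strain difference (HHR minus NHR, log2) against -log10 of the limma adjusted p for all 233 tested miRNAs, with miR-22 in red, the 0.05 threshold dashed and the median difference of -0.11 dotted. The miR-22 difference is -0.17, and 77 miRNAs are more negative.

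Among the 233 tested miRNAs 77 had a more negative strain difference than miR-22, whose difference relative to their median of -0.11 was -0.059. The miRNAs whose log2 levels followed miR-22 most closely over the 16 arrays were miR-296* (Pearson r = 0.92), miR-1249 (0.91), miR-181a (0.91), the myeloid miRNA miR-223 (0.91) and let-7d (0.89), against a median r of 0.54 over 232 miRNAs. Within the groups, after group means were removed, miR-296* again came first (r = 0.82), followed by miR-99b (0.78), miR-1249 (0.76), miR-290 (0.76) and miR-328a (0.74), against a median of 0.27. These values share the arrays and their scaling, and describe likeness only.

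Of the miRNAs encoded near miR-22, the cluster of miR-212 and miR-132 lies 283.5 and 283.2 kb away in the GRCr8 assembly. miR-212, which in mice promotes cardiomyocyte growth together with miR-132, was the one of 4 products detected, on all 16 arrays. Its level was 124 ± 20.1 in HHR and 121 ± 22.6 in NHR (SD over 8 animals a strain), a log2 difference of 0.036 ± 0.13 (limma adjusted p = 0.833). miR-132, miR-132* and miR-212* were detected on no array.

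miRNAs with related roles were counted beside the background of 45.5% lower and 9.01% higher and the median of -0.11 over all tested. Of the muscle miRNAs 4 of 7 tested were lower in HHR and 0 higher (median -0.15), with the smallest p for miR-499 (-0.28 ± 0.027, limma adjusted p = 1.80e-06), which lies in an intron of a myosin gene. miR-133b differed by -0.15 ± 0.031 (adjusted p = 0.00132), and the cardiomyocyte miRNA miR-208b-3p by -0.17 ± 0.061 (adjusted p = 0.0354). Under the 5 other scalings the sign turned in 2 for miR-499, in 4 for miR-133b and in 5 for miR-208b-3p. Of the miRNAs reported to promote hypertrophy 6 of 8 were lower and 1 higher (median -0.13), led by miR-499, miR-195 (-0.34) and miR-23a (-0.13). Of those reported to oppose it 2 of 7 were lower, miR-133b and miR-26a, and 1 higher, miR-378 (0.41 ± 0.034, adjusted p = 3.26e-07), which was positive under all 6 scalings. miR-23a and miR-26a turned positive under 4 of the 5 others. These medians, that of the Hdac4 list below and the muscle median turned positive under 5 (promoting), 4 (opposing), 5 (Hdac4) and 4 (muscle) of the 5 other scalings.

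Other miRNAs reported to act on Sirt1 were called in both directions, and those reported to act on Hdac4 only as lower. Of those reported for Sirt1 2 of 4 were higher (median 0.031), miR-34a (0.96 ± 0.048, limma adjusted p = 1.52e-09) and miR-199a-5p (0.20 ± 0.072, adjusted p = 0.0335), and 2 lower, miR-195 (-0.34 ± 0.042, adjusted p = 2.30e-05) and miR-181a (-0.14 ± 0.030, adjusted p = 0.00174). The sign of miR-34a, miR-199a-5p and miR-195 held under all 6 scalings, and that of miR-181a turned under 4 of the 5 others. miR-34a was called under 6, miR-199a-5p under 5 and miR-195 under 3 of the 6, with miR-195 at -0.0031 at its highest. Of those reported for Hdac4 1 of 6 was lower, miR-29c (-0.15 ± 0.031, adjusted p = 0.00132), whose sign turned under 4 of the 5 other scalings, and 0 were higher (median -0.13). The messages of Sirt1 and Hdac4 were not measured on these arrays.

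Of the markers of other heart cells 6 of 12 tested (50%) were lower in HHR and 1 (8.33%) was higher, shares near the background of 45.5% and 9.01% over all tested miRNAs. Both endothelial markers, miR-126 and miR-126*, were called lower in HHR, with a summed level of 982 to 1096 in HHR against 1178 to 1295 in NHR, as were the smooth muscle markers miR-143 and miR-145 (1288 to 1361 against 1418 to 1504). Of 3 leukocyte markers tested miR-223 and miR-150 were lower, with a negative difference under all 6 scalings. The summed level of the 4 leukocyte markers on the array was 93.8 to 109 in HHR against 112 to 151 in NHR. Of 3 fibroblast markers miR-199a-5p was called higher under the reported scaling. The summed level of these 3 was 1266 to 1688 in HHR against 1197 to 1475 in NHR. Neither of the 2 erythroid markers was called (summed level 203 to 313 in HHR against 213 to 338 in NHR). The part of the markers of these cell types in the miR-22 difference was not tested. The signs of the endothelial markers turned under 3 of the 5 other scalings and those of the smooth muscle markers under 4 or 5. The fibroblast markers miR-199a-3p, miR-199a-5p and miR-214 were positive under all 6 scalings, and called under 4, 5 and 5 of the 6.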

How the data were processed

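Total RNA (100 ng per animal, per the labels' protocols) was labelled with Cy3. The authors deposited scanner output of Agilent Feature Extraction 10.7.3.1, whose spot intensity values are background-subtracted and not scaled between arrays, per the file headers. The detection flags are other values of 0 or 1 deposited in the same output. A table of log2 values that the authors deposited served as an alternative; the submitters' processing notes name limma, while its scaling, centring and background correction stay unknown.

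Spots flagged as outliers were left out and spots of a probe averaged. Each array was scaled to an equal 75th percentile over 258 probes that every array showed well above background, probes of a miRNA were averaged, values were raised to a floor of 1.92, and log2 was taken. The 233 miRNAs that the software called detected on at least 4 arrays were tested with limma 3.58.1 (R 4.3.3), with 1 mean per group and Benjamini-Hochberg adjustment at 0.05. Array summaries were compared by exact permutation over 12870 splits. The procedure was checked on simulated data. Replicates are separate animals, and the number of arrays limits the precision. The members and lists were chosen with earlier results of these data known. Named miRNAs were the members, their rank neighbours, the miRNAs most alike and up to 3 called members of each list. One list is not reported here. miR-22* had been planned for the same tests; not being detected, it had none, and the array summaries were adjusted over 3, not 4. Alternatives covered signal, background, scaling, filter, floor, model, slide, sex and each array left out; those by single probe and on bright arrays were chosen after seeing the data.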

Additional observations from a re-analysis of the deposited data

Results flagged for a closer look

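The signal rank of miR-22 was 16 on HHR female 2 and 15 on the other HHR arrays, and 14 on NHR female 3 against 15 on the other NHR female arrays. In each case 1 array stood apart because the remaining ranks were tied, by 1 place. Of 23 groups of values looked at in this way 3 stood out, HHR female 2 among both the HHR females and all HHR arrays. For values without ties chance flags about 1 in 20 such groups, a rate that does not hold for tied ranks.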

How the results depend on the processing

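The miR-22 strain difference of -0.17 turned positive with a percentile over all probes (0.11), without scaling (0.17), with median centring (0.0089), with spike-in scaling (0.079) and in the authors' value table (0.14). It was negative but not called with quantile normalization (-0.040), in males alone (-0.15), within slide 1 (-0.14) and on the bright arrays (-0.098). Under the 17 other settings it stayed lower and called, with each single probe among them, and without each array it was -0.19 to -0.15. The sex difference of -0.0059 turned positive with the total gene signal (0.0071), quantile normalization (0.022), a percentile over all probes (0.059), median centring (0.016) and within slide 2 (0.0011), and ranged from -0.021 to 0.021 without each array, positive without NHR male 2. The interaction of 0.040 turned negative without scaling (-0.14), with spike-in scaling (-0.064), median centring (-0.046), quantile normalization (-0.0080), an all-probe percentile (-0.039) and in the authors' value table (-0.080), and ranged from -0.015 to 0.070 without each array, negative without NHR male 2. Neither passed the threshold under any setting run. The rank difference of 0.50 passed with the mean of log2 probe values (2.62) and in the authors' value table (2.25). The share difference did not pass with a normexp background (-0.0393), within slide 1 (-0.0480) or 2 (-0.114), or in females (-0.0843) or males (-0.0773) alone. Within slide 2 and in females its exact permutation p of 0.0286 was the smallest that so few arrays allow. Adjustment raised it to 0.0857, so these 2 settings could hardly pass. The difference from miR-1 and miR-133a did not pass with a normexp background (-0.069), within slide 1 (-0.049) or 2 (-0.12), or in females (-0.11) or males (-0.064) alone, and was -0.11 to -0.070 without each array. The slide and sex fits hold fewer arrays; the cause of the other changes was not tested. With a replicate block the strain difference was -0.17 (adjusted p = 0.00167), and no call on miR-22 changed. No label says that the numbers pair animals; 16 of 24 same-numbered pairs correlated above 0.1 and 11 of 24 correlated best with their own number, so the pairing was not settled by the data. The count of called miRNAs, 127, was 70 with the total gene signal, 48 without scaling, 25 with spike-in scaling, 15 in the authors' value table, 74 with brightness as a covariate, 24 in males alone, 37 and 47 within slides 1 and 2, and 55 on the bright arrays. miR-22* and the arm ratio gave no value under any setting, since miR-22* was not well above background.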

Other observations

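In the authors' deposited table of log2 values, miR-22 ran from 9.51 over a median of 9.69 to 9.87 in HHR and from 9.28 over a median of 9.41 to 9.96 in NHR. miR-22* ran from 6.16 to 6.23 in HHR and from 6.14 to 6.19 in NHR in the authors' deposited table, where the median over all miRNAs of an array was 6.13 to 6.15. There miR-22* stood at the 49.2 to 68.7 percentile of its array, so this table does not separate it from the bulk of undetected miRNAs.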
